A study of Mus musculus with 10 samples.

Results

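The interaction of medium and genotype was measured gene by gene in mouse neural stem cells: the change between media in Atrx-deleted lines minus the change in control lines. A negative interaction therefore marks a gene that rose less, or fell more, in the Atrx-deleted lines, and a positive one a gene that fell less or rose more. All 10 libraries of the series entered, 6 from 3 lines with Atrx deleted, named mA16d#4, mA19d#4 and mA19d#7, and 4 from Control NSC#1 and Control NSC#2, the control lines. Each line was sampled once after 8 days of differentiation, in neural basal medium with B27 and no growth factors, and once while proliferating, with EGF and bFGF in the medium (20 ng/ml). All lines, the control lines included, lacked p53 and carried transduced mutant IDH1(R132H). How the lines were derived, and which promoter drove the deletion, is not given in the sources used here. Where nothing says that lines came from separate animals, p-values measure only the spread between these lines.

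Neural stem cells kept in EGF and bFGF divide, and on growth factor withdrawal they leave the cell cycle and turn on genes of neurons, astrocytes and oligodendrocytes. ATRX is a chromatin remodeller of the SNF2 family that, with DAXX, places the histone variant H3.3 in repeats and heterochromatin, and it is lost in a class of gliomas that also carry mutant IDH1 and mutant p53. In bulk RNA, fewer cells of a type and less RNA per cell cannot be told apart.

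Levels are in TPM, transcripts scaled to a fixed total per library, and changes are differences of log2(TPM + 1), so 1 unit is a 2-fold change and changes of genes with low levels are understated. Depth is unknown, because every deposited library holds the same set of values. Atrx was at 54.4, 47.2 and 54.0 TPM in differentiation medium and 71.6, 42.8 and 74.0 TPM in proliferation medium in the Atrx-deleted lines, in the order mA16d#4, mA19d#4 and mA19d#7. The control lines had 127.6 and 126.7 TPM (differentiation) and 162.6 and 149.0 TPM (proliferation), Control NSC#1 given before Control NSC#2. Its transcript was lower in every Atrx-deleted library without being absent, and its own interaction was 0.06 (SE 0.316, limma adjusted p = 0.989, and 0.03 with 9 libraries). All 7 neural stem or progenitor markers were at 1 TPM or more in every library. The highest single marker of microglia was at 11.2 TPM, and those of endothelium, fibroblasts and pluripotent cells were at 3.41, 4.41 and 4.28 TPM in these short panels. The longer lists of such cell types held higher members. Cspg4 of the endothelial and mural list was at up to 225 TPM (Control NSC#2, proliferation), and Esam of that list at up to 11.1 TPM. Pdgfra of the fibroblast list, also an oligodendrocyte lineage marker here, was at up to 88.6 TPM. Foxj1 of the ependymal and choroid plexus list was at 157 TPM in the mA19d#7 differentiation library and 62.2 TPM in that of Control NSC#2. Esrrb of the pluripotent list was at up to 12.7 TPM. Twist1, a mesenchymal transcription factor gene of the fibroblast list, was at 30.2 TPM in the mA19d#7 differentiation library and 16 TPM in the mA16d#4 proliferation library.

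The library labelled mA19d#7 in differentiation medium stood apart. Across genes its closest match was the proliferation library of mA16d#4 (Spearman's rho 0.957), above the proliferation library of its own label (0.926) and the mA16d#4 library in differentiation medium (0.938). Its summed neuron markers (Tubb3, Dcx, Map2, Stmn2 and Rbfox3) came to 425 TPM and its summed oligodendrocyte lineage markers to 481 TPM, the lowest of the 10 libraries in both. Gfap, the intermediate filament of astrocytes, was at 1411 TPM in it, against 79.5 and 3.49 TPM in mA16d#4 and mA19d#4 in the same medium. Interactions and list medians are therefore also given for the 9 libraries that remain without it, written as with 9 libraries. Whether its label is right was not tested, and each change in mA19d#7 and the block by cell line rest on that label.

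One gene passed the test of the interaction with all 10 libraries (limma, Benjamini-Hochberg adjusted p below 0.05), 0.00639% of 15660 genes tested, and it had a negative value. Tmem132b (ENSMUSG00000070498, chromosome 5, 125531774 to 125792583, plus strand, GRCm38) encodes a single-pass transmembrane protein of the TMEM132 family. After differentiation it was at 0.131, 0.0117 and 0.0899 TPM in mA16d#4, mA19d#4 and mA19d#7, against 87.6 and 105 TPM in Control NSC#1 and Control NSC#2. In proliferation medium it was at 0.416, 0.343 and 0.0476 TPM in the Atrx-deleted lines, against 0.483 and 2.44 TPM in the control lines. It was low in every library of proliferation medium, high in both control libraries after differentiation and near 0 in all 3 Atrx-deleted libraries. The change per line was -0.32, -0.41 and 0.06 in the Atrx-deleted lines, against 5.90 and 4.94 in the control lines, and the sets did not overlap.

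The interaction of Tmem132b was -5.65 (SE 0.584, limma adjusted p = 0.0282). Without the mA19d#7 differentiation library it was -5.66 (limma adjusted p = 0.0373), and with the cell line as a block the adjusted p was 0.128, so the call was lost. The exact permutation test of the change per line (two-sided) could not go below 0.1 with 3 lines against 2, and gave p = 0.1. Leaving out each library in turn kept the value between -6.25 and -5.04, and the adjusted p stayed below 0.05 only without the mA19d#7 differentiation library (0.0373) or the Control NSC#2 proliferation library (0.0263). It was 0.0558 and 0.109 without the differentiation libraries of mA16d#4 and mA19d#4, and 0.120, 0.155 and 0.103 without the proliferation libraries of mA16d#4, mA19d#4 and mA19d#7. The values were 0.330 and 0.162 without the differentiation libraries of Control NSC#1 and Control NSC#2, and 0.142 without the Control NSC#1 proliferation library.

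The start of Tmem132b in RefSeq is shown because Tmem132b is the one gene that passed. The gene begins earlier, at 125531774, in GENCODE M21, so the annotations differ on the start and the printed stretch lies inside that span. The 300 bases around the RefSeq start are printed with CG pairs in capitals (chr5:125532168-125532467, plus strand, build GRCm38.p6, 250 bases before the start to 50 after).
Tmem132b: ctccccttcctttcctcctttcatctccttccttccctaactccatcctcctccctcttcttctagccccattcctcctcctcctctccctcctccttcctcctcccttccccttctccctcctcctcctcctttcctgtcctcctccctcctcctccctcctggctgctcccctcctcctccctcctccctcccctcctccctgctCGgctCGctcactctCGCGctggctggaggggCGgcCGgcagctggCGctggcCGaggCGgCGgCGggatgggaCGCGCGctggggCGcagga
This stretch holds 15 CG pairs, against a median of 20 (quartiles 11 and 28) over the 12277 tested genes with an entry, and 67.7% of its bases are G or C (median 60.3%). Of the 16 other tested genes within 1 Mb of Tmem132b, 0 had an unadjusted interaction p below 0.05 (limma), and their values lay between -1.01 and 1.31.

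**Figure D1:**
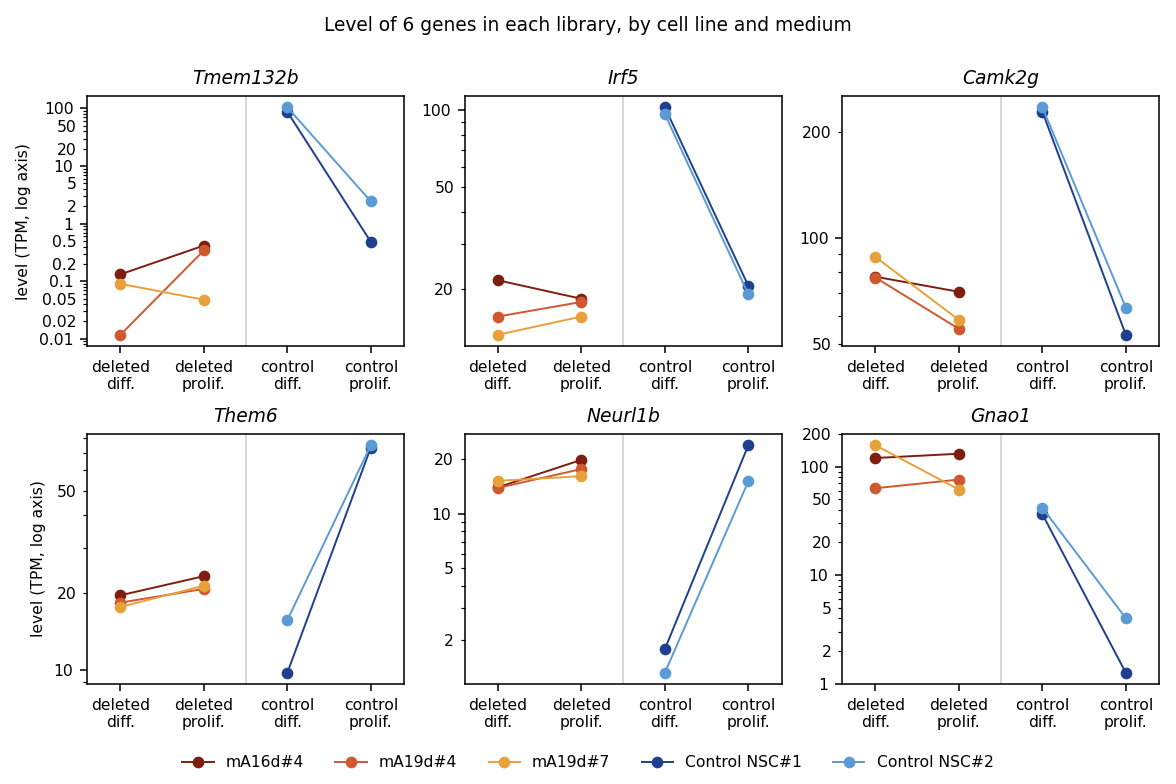
Level in TPM on a log axis for Tmem132b, Irf5, Camk2g, Them6, Neurl1b and Gnao1, with 1 point per library, Atrx-deleted lines left of control lines, differentiation left of proliferation medium, and a line joining the libraries of a cell line. Tmem132b reached 87.6 and 105 TPM in the differentiated control lines and stayed under 0.5 TPM in all Atrx-deleted libraries.

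With the mA19d#7 differentiation library left out, 3 of 15545 genes passed (0.0193%): Tmem132b, Fam212b and Tle6. Fam212b (named Inka2 in the annotation, chromosome 3, 105704599 to 105720842) encodes an inhibitor of the kinase PAK4. After differentiation it was at 365, 454 and 57.0 TPM in mA16d#4, mA19d#4 and mA19d#7, against 85.9 and 108 TPM in the control lines. While proliferating, the Atrx-deleted lines had 217, 254 and 299 TPM, against 347 and 349 TPM in the control lines. The 2 Atrx-deleted lines that were kept did not show the drop seen in both control lines, and the library left out did show it. The interaction was 2.51 (limma adjusted p = 0.0373) without that library and 1.58 (adjusted p = 0.796) with it, so the call rests on the omission.

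Tle6 (chromosome 10, 81590904 to 81601073) belongs to the TLE family of transcriptional corepressors. After differentiation it was at 39.9, 41.1 and 30.3 TPM in mA16d#4, mA19d#4 and mA19d#7, against 14.6 and 14.9 TPM in the control lines. Proliferating Atrx-deleted lines had 123, 118 and 114 TPM, against 144 and 135 TPM in the control lines. The gene fell in both genotypes, by 1.66 in the Atrx-deleted lines (limma adjusted p = 0.00775) and by 3.16 in the control lines (adjusted p = 0.000104), and every control line fell further than every Atrx-deleted line. The interaction was 1.5 (limma adjusted p = 0.146) with all libraries and 1.64 (adjusted p = 0.0373) without the mA19d#7 differentiation library. With both mA19d#7 libraries left out neither Tle6 nor Fam212b passed, and with the cell line as a block on the 8 libraries that remained Fam212b passed and Tle6 did not. The related corepressor gene Tle2 lies directly beside Tle6 on the opposite strand (chromosome 10, 81574561 to 81590845, plus strand). Whether the values of these neighbours are independent was not tested. Tle2 was at 22.4, 29.7 and 34.2 TPM after differentiation in the Atrx-deleted lines, against 9.49 and 11.0 TPM in the control lines. Its interaction was 1.43 (limma adjusted p = 0.288) with all libraries and 1.30 (adjusted p = 0.136) with 9 libraries.

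Below the adjusted threshold, 1099 genes (7.02%) had an unadjusted interaction p below 0.05, 579 of them positive (3.7%) and 520 negative (3.32%). These are values and not calls. Without the mA19d#7 differentiation library the number was 1822 (11.7%), with 985 positive (6.34%) and 837 negative (5.38%). Sorted by a 2-fold limit, 272 of the 520 negative genes went up at least 2-fold in the control lines and changed less than 2-fold either way in the Atrx-deleted lines, and 349 of the 579 positive genes went down at least 2-fold in the control lines and changed less than 2-fold in the Atrx-deleted lines. The reverse, a 2-fold change in Atrx-deleted lines and less than 2-fold in control lines, held for 25 negative and 10 positive genes. Without the library these numbers were 334 and 351 for changes in control lines alone, and 98 and 43 for changes in Atrx-deleted lines alone. These classes use the mean change of each genotype. Their shares over all tested genes are not given here, so nothing is read from the numbers. Line by line, 5.20% to 9.35% of all tested genes went up at least 2-fold in an Atrx-deleted line, against 7.75% and 9.82% in the control lines. For genes that went down the shares were 7.73% to 9.20%, against 8.13% and 10.5%. The classes thus do not count the genes that changed in a single line.

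Of the genes with negative values, those of smallest p after Tmem132b were Irf5, Camk2g, Chadl, Ccdc88c, Pde9a, Nadk2, Rpl12, Lrch3 and Gnao1, and none passed the adjusted threshold. Irf5, an interferon regulatory transcription factor, was at 21.6, 15.6 and 13.3 TPM after differentiation in mA16d#4, mA19d#4 and mA19d#7, against 102 and 96.1 TPM in the control lines. In proliferation medium Irf5 was at 18.3, 17.8 and 15.6 TPM in the Atrx-deleted lines, against 20.6 and 19.1 TPM in the control lines, so the 2 genotypes lay close together before differentiation and apart after it. Its interaction was -2.32 (SE 0.317, limma adjusted p = 0.0928, and -2.18 with 9 libraries). Camk2g, the gamma subunit of calcium/calmodulin-dependent protein kinase II, was at 77.7, 77.3 and 88.4 TPM after differentiation in the Atrx-deleted lines, against 228 and 235 TPM in the control lines. In proliferation medium it was at 70.4, 55.3 and 58.6 TPM in the Atrx-deleted lines, against 53.2 and 63.6 TPM in the control lines. The ranges overlapped in proliferation medium and lay apart after differentiation, with an interaction of -1.57 (SE 0.227, limma adjusted p = 0.0928, and -1.64 with 9 libraries).

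Pde9a, a cyclic GMP phosphodiesterase, Lrch3, a leucine-rich repeat protein, and Nadk2, the mitochondrial NAD kinase, had the same form. Pde9a averaged 18.1 ± 1.39 TPM after differentiation in the Atrx-deleted lines (SD, n = 3), against 50.7 ± 7.50 TPM in the control lines (SD, n = 2), and Lrch3 averaged 77.8 ± 7.31 TPM in the Atrx-deleted lines, against 229 ± 2.92 TPM in the control lines. Nadk2 went up in both genotypes, to 59.4 ± 3.17 TPM in the Atrx-deleted lines and 133 ± 6.58 TPM in the control lines, and its interaction was -1.32 (limma adjusted p = 0.221, and -1.32 with 9 libraries). In proliferation medium Nadk2 averaged 30.2 ± 3.51 TPM in the Atrx-deleted lines and 26.7 ± 3.23 TPM in the control lines.

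Gnao1, Ccdc88c and Chadl had another form, since the Atrx-deleted lines were above the control lines before differentiation. Gnao1, the alpha subunit of the brain G protein Go, was at 120, 63.2 and 157 TPM after differentiation in mA16d#4, mA19d#4 and mA19d#7, against 36.5 and 41.6 TPM in the control lines. Its levels in proliferation medium were 131, 76.0 and 61.4 TPM in the Atrx-deleted lines, against 1.26 and 4.01 TPM in the control lines. The control lines increased by 3.57 (limma adjusted p = 0.0062) and still remained below every Atrx-deleted library, and the interaction was -3.26 (adjusted p = 0.288, and -3.54 with 9 libraries). Ccdc88c, a Dishevelled-binding protein of Wnt signalling, averaged 75.9 ± 9.99 TPM after differentiation in the Atrx-deleted lines and 90.7 ± 1.73 TPM in the control lines. In proliferation medium Ccdc88c averaged 71.2 ± 14.4 TPM in the Atrx-deleted lines and 24.1 ± 4.63 TPM in the control lines. Chadl, a leucine-rich repeat protein of the extracellular matrix, averaged 14.9 ± 0.416 TPM after differentiation in the Atrx-deleted lines and 43.3 ± 1.83 TPM in the control lines, and in proliferation medium 19.5 ± 2.52 TPM in the Atrx-deleted lines and 11.1 ± 4.32 TPM in the control lines. Rpl12, a ribosomal protein gene with processed copies in the genome that could share its reads, was at 89.7, 122 and 121 TPM after differentiation and 306, 356 and 250 TPM in proliferation medium in the Atrx-deleted lines. In the control lines it was at 149 and 226 TPM after differentiation, and 129 and 156 TPM in proliferation medium.

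Miat, a long noncoding RNA on the same chromosome as Tmem132b, had the second most negative value named here at -4.77 (SE 0.958, limma adjusted p = 0.288, and -4.71 with 9 libraries), and was picked after its values were seen. It was at 0.342, 0.0135 and 0.0357 TPM after differentiation in the Atrx-deleted lines, against 178 and 200 TPM in the control lines. In proliferation medium Miat was at 4.87, 0.00559 and 0.0503 TPM in the Atrx-deleted lines, against 7.47 and 14.4 TPM in the control lines, so the genotypes were apart there as well. Of the 18 other tested genes within 1 Mb of Miat, 2 had an unadjusted p below 0.05. A pseudocount of 5 in place of 1 brought Miat past the threshold beside Tmem132b.

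Positive genes among those of smallest p were Them6, Neurl1b, Tle6, Cdca7l, Gmnn, Fv1, Tle2, Ube2c and Casc5, and each had an adjusted p above 0.05 with all libraries. Neurl1b, a ubiquitin ligase that acts on Notch ligands, was at 14.0, 13.9 and 15.2 TPM after differentiation in mA16d#4, mA19d#4 and mA19d#7, against 1.78 and 1.32 TPM in the control lines. Before differentiation it was at 19.9, 17.7 and 16.2 TPM in the Atrx-deleted lines, against 24.0 and 15.1 TPM in the control lines. The genotypes overlapped in proliferation medium and were about a factor of 9 apart after differentiation, and the interaction was 2.69 (SE 0.382, limma adjusted p = 0.0928, and 2.65 with 9 libraries).

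Them6, a thioesterase superfamily member, was at 19.6, 18.3 and 17.6 TPM after differentiation and 23.2, 20.7 and 21.3 TPM in proliferation medium in the Atrx-deleted lines. In the control lines it was at 9.78 and 15.7 TPM after differentiation, and 73.5 and 75 TPM in proliferation medium, so the genotypes differed in proliferation medium more than after differentiation. Its interaction was 2.27 (SE 0.308, limma adjusted p = 0.0928, and 2.30 with 9 libraries).

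Gmnn (geminin, the inhibitor of the replication licensing factor Cdt1), Ube2c (the ubiquitin-conjugating enzyme of the anaphase-promoting complex) and Casc5 (the kinetochore scaffold also named Knl1) are cell cycle genes. Gmnn was at 18.2, 23.5 and 26.4 TPM after differentiation in the Atrx-deleted lines, against 3.45 and 5.10 TPM in the control lines, with an interaction of 2.01 (limma adjusted p = 0.288, and 1.90 with 9 libraries). Cdca7l, a Myc-interacting nuclear protein gene, was at 15.8, 25.3 and 17.7 TPM after differentiation in the Atrx-deleted lines, against 3.08 and 4.38 TPM in the control lines. In both, the lowest Atrx-deleted library stood above the highest control library. Fv1, an endogenous retroviral restriction gene, averaged 54.2 ± 7.18 TPM after differentiation in the Atrx-deleted lines and 22.5 ± 0.143 TPM in the control lines, and in proliferation medium 38.2 ± 8.28 TPM in the Atrx-deleted lines and 44.9 ± 3.50 TPM in the control lines.

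The medium changed 13 genes in the Atrx-deleted lines (0.083%) and 706 in the control lines (4.51%) in the same fit. In the Atrx-deleted lines 2 rose (0.0128%) and 11 fell (0.0702%), and in the control lines 305 rose (1.95%) and 401 fell (2.56%). Without the mA19d#7 differentiation library the numbers were 348 in the Atrx-deleted lines (2.24%) and 1450 in the control lines (9.33%), and with the cell line as a block they were 6 (0.0383%) and 487 (3.11%). The control number fell to 6 and 154 without the proliferation library of Control NSC#1 and of Control NSC#2, and to 10 and 17 without their differentiation libraries. The number for Atrx-deleted lines fell to 0, 0 and 2 without the mA19d#4 or mA19d#7 proliferation library or the mA16d#4 differentiation library, to 1 without any one control library, and was 53 without the mA19d#4 differentiation library. Replicate lines also spread differently, with a median SD per gene of 0.353 and 0.264 in the Atrx-deleted groups (differentiation and proliferation). In the control groups it was 0.141 and 0.148. The fit shared a gene's estimate of spread over all groups, so these SDs did not enter it group by group. Why the counts differed was not tested. A gene passing in one genotype and not in the other is no test of a difference between them.

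The 2 genes that rose in the Atrx-deleted lines were Cadm2 and Negr1, which encode neuronal adhesion molecules of the immunoglobulin superfamily. Cadm2 rose by 2.11 in the Atrx-deleted lines and by 1.55 in the control lines, and Negr1 rose by 1.86 in the Atrx-deleted lines and by 1.71 in the control lines. Their interactions were 0.56 (limma adjusted p = 0.845, and 0.81 with 9 libraries) and 0.15 (adjusted p = 0.968, and 0.11 with 9 libraries). Dgkz, a diacylglycerol kinase gene, fell by 1.52 in the Atrx-deleted lines and by 1.75 in the control lines, and Ptp4a3, a phosphatase gene, fell by 2.24 in the Atrx-deleted lines and by 2.28 in the control lines.

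The 305 genes that rose in the control lines had a median change of 0.54 in the Atrx-deleted lines, against 1.52 in the control lines. In the Atrx-deleted lines 61 of them went up at least 2-fold, 244 did not reach that limit, and 28 of these had a negative sign. The 401 genes that fell in the control lines had a median change of -0.57 in the Atrx-deleted lines, against -1.69 in the control lines, and 60 of them went down at least 2-fold while 341 did not reach that limit and 17 of these had a positive sign. Without the mA19d#7 differentiation library the medians in the Atrx-deleted lines were 0.56 and -0.62. An interaction opposite in sign to the control change had unadjusted limma p below 0.05 in 165 of the 305 and 260 of the 401. Over all genes 3.32% were negative and 3.7% positive at that limit. These genes were chosen on control libraries that also enter the interaction, so a shortfall in the other lines is partly built into the choice, and nothing is read from those counts.

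**Figure D2:**
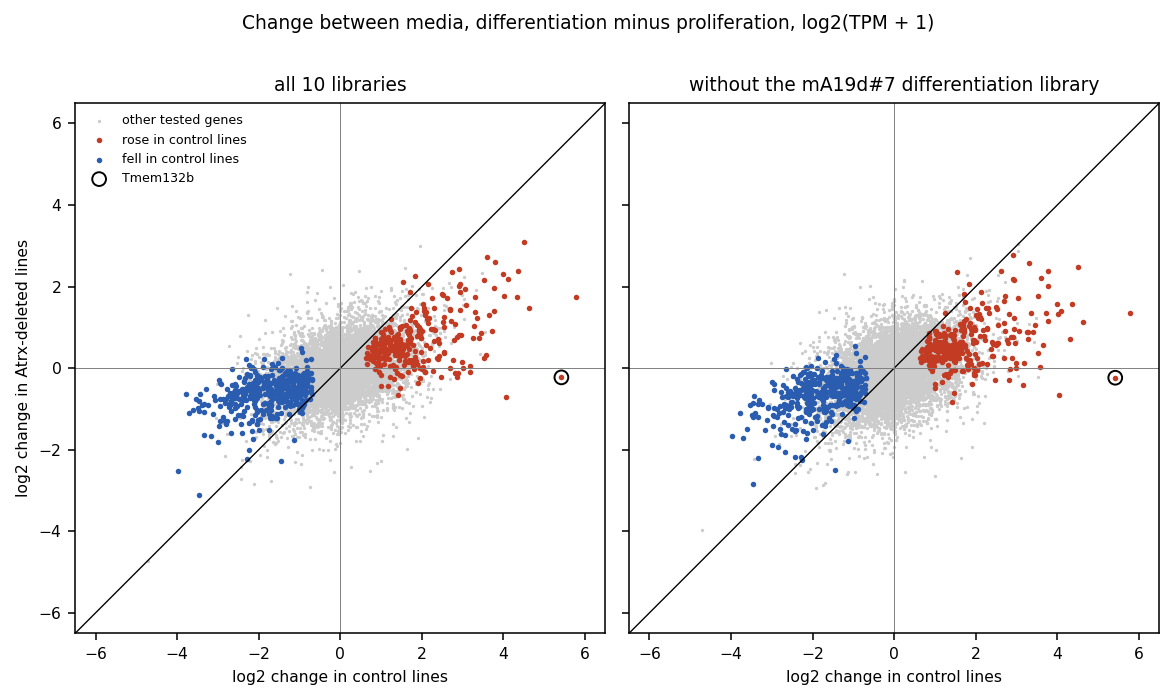
Change between media in log2(TPM + 1), differentiation minus proliferation, in the Atrx-deleted lines (y axis) against the control lines (x axis), with all 10 libraries (left) and without the mA19d#7 differentiation library (right). Each dot is a gene, the 305 genes that rose and the 401 that fell in the control lines are coloured, and the diagonal marks equal changes. Most coloured genes lie between the diagonal and 0, and Tmem132b (ringed) lies at 5.42 in control and -0.22 in Atrx-deleted lines.

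A reading free of that choice takes genes from 1 control line and looks at lines that had no part in choosing them. Of 1538 genes that went up at least 2-fold in Control NSC#1, 21.2%, 16.4% and 27% did so in mA16d#4, mA19d#4 and mA19d#7, against 42.7% in Control NSC#2. Of 1639 genes that went down at least 2-fold there, 24.3%, 23.9% and 21.8% did so in the Atrx-deleted lines, against 44.2% in Control NSC#2. Both Control NSC#2 shares were above those of all 3 Atrx-deleted lines. Chosen on Control NSC#2, the 1214 genes that went up did so in 26.5%, 16.3% and 27.6% of cases in mA16d#4, mA19d#4 and mA19d#7, against 54.0% in Control NSC#1. For its 1273 genes that went down, the shares were 31.6%, 25.4% and 24.0%, against 56.9% in Control NSC#1. Over all tested genes, 5.20% to 9.35% went up and 7.73% to 9.20% went down at least 2-fold in an Atrx-deleted line, against 7.75% and 9.82% up and 8.13% and 10.5% down in the control lines. The Atrx-deleted lines thus followed the control lines more often than their own background and less often than the other control line did. With 1 library per line and medium, these shares carry no test.

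Genes chosen on an Atrx-deleted line gave the shares another order. Of 971 genes that went up at least 2-fold in mA16d#4, 20.0% and 17.2% did so in mA19d#4 and mA19d#7, against 33.6% and 33.2% in the control lines. Of 1279 genes that went down, 22.9% and 14.1% did so in mA19d#4 and mA19d#7, against 31.1% and 31.4% in the control lines. The 814 genes that went up in mA19d#4 did so in 23.8% and 23.5% of cases in mA16d#4 and mA19d#7, against 31.0% and 24.3% in the control lines. Over all tested genes, 6.20%, 5.20% and 9.35% went up in mA16d#4, mA19d#4 and mA19d#7, against 9.82% and 7.75% in the control lines. The background of mA19d#7 was thus above that of Control NSC#2, while its share of the genes that went up in mA16d#4 was lower. Why the shares had this order was not tested. For the 1464 genes that went up in the library pair labelled mA19d#7, the shares were 11.4% and 13% in mA16d#4 and mA19d#4, against 28.3% and 22.9% in the control lines.

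**Figure D3:**
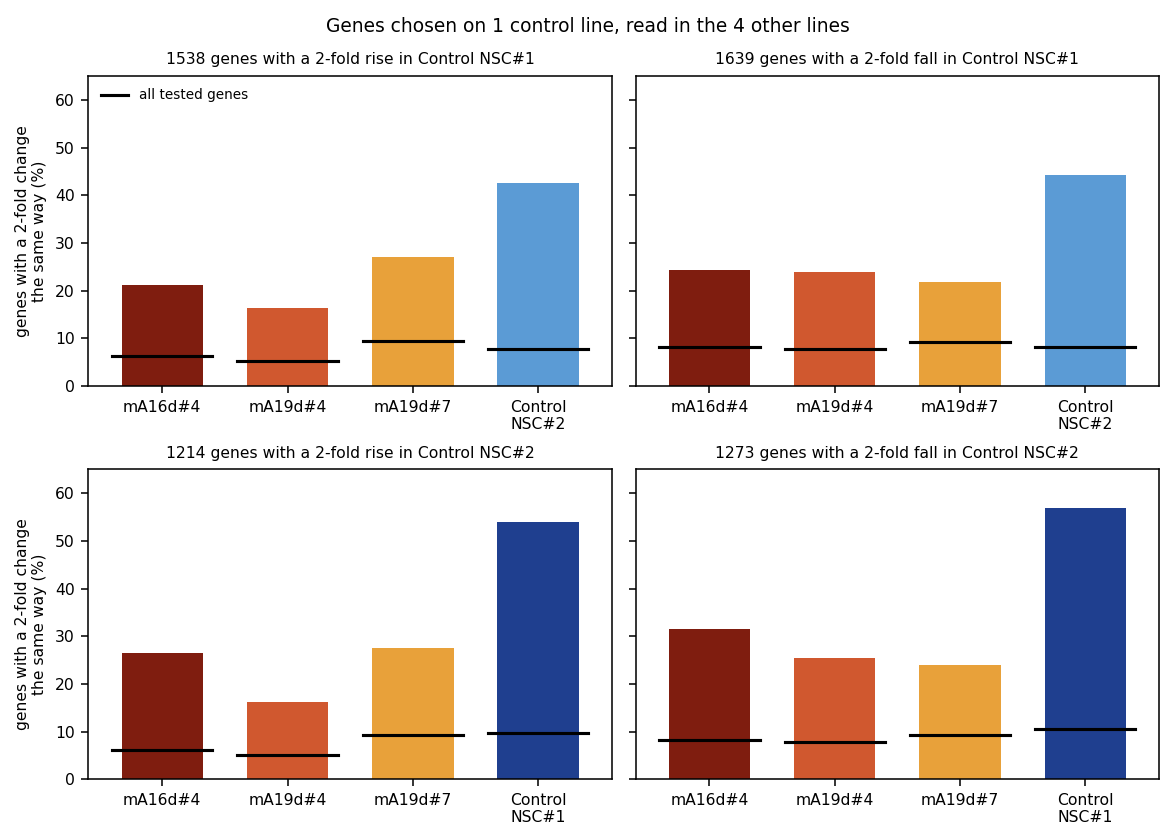
Share of genes (percent) chosen for a change of at least 2-fold in 1 control line that changed at least 2-fold the same way in each of the other 4 lines, Atrx-deleted lines left of the control line. Black bars give the share over all tested genes. The other control line reached 42.7% to 56.9%, and the Atrx-deleted lines 16.3% to 31.6%.

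Among 31 gene lists written from general knowledge, with earlier results of these data known, the mitosis list held the highest median interaction. It has 32 genes of the mitotic machinery, all tested, and 0 passed the adjusted test with either set of libraries (limma), while 27 had an unadjusted p below 0.05 with a positive sign, and 22 without the mA19d#7 differentiation library. The median interaction was 1.75 and 31 of 32 were positive, beside a median of 0.03 and 52.2% positive over all genes, and without that library it was 1.65. The median change was -0.67 in the Atrx-deleted lines, where 0 of 32 fell past the test, and -2.40 in the control lines, where 26 of 32 fell, beside 0.0702% and 2.56% of all genes in the same comparisons. With so few calls in the Atrx-deleted lines, nothing is read from the 0. For 23 of 32 genes (71.9%), the change in every Atrx-deleted line, sign included, lay above that in every control line, beside 13.9% of all genes.

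The Atrx-deleted lines did not act alike in this list. The median change was -1.71 in mA16d#4, -0.21 in mA19d#4 and 0.01 in mA19d#7, against -2.61 and -2.11 in Control NSC#1 and Control NSC#2. In mA16d#4 the mitotic genes thus went down nearly as far as in Control NSC#2, while in mA19d#4 and mA19d#7 most hardly moved. Mki67, the proliferation antigen Ki-67, was at 55.6, 163 and 90.5 TPM after differentiation in mA16d#4, mA19d#4 and mA19d#7, against 23.1 and 23.5 TPM in the control lines. In proliferation medium Mki67 was at 190, 169 and 170 TPM in the Atrx-deleted lines, against 306 and 171 TPM in the control lines. Every Atrx-deleted library was above both control libraries after differentiation. In proliferation medium Control NSC#1 was above all 3 Atrx-deleted lines and Control NSC#2 was level with them, so the decrease in Control NSC#1 started from a higher level, and the interaction was 2.34 (SE 0.532, limma adjusted p = 0.331, and 2.37 with 9 libraries).

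Top2a, the topoisomerase that untangles replicated chromosomes, was at 74.4, 150 and 111 TPM after differentiation in the Atrx-deleted lines, against 23.6 and 21.8 TPM in the control lines. In the same medium Ube2c was at 64.4, 115 and 115 TPM in the Atrx-deleted lines, against 7.24 and 13.7 TPM in the control lines. Cenpf, a kinetochore protein gene, was at 24.9, 75 and 74.3 TPM in the Atrx-deleted lines, against 7.65 and 7.88 TPM in the control lines. In proliferation medium Ube2c was at 223, 165 and 115 TPM in the Atrx-deleted lines, against 176 and 90.4 TPM in the control lines. The interactions were 2.07 for Top2a (SE 0.444, limma adjusted p = 0.318, and 2.04 with 9 libraries), 2.76 for Ube2c (SE 0.557, adjusted p = 0.288, and 2.63 with 9 libraries) and 2.41 for Cenpf (SE 0.633, adjusted p = 0.425, and 2.15 with 9 libraries). Cdc25c, the phosphatase that activates cyclin B and Cdk1, had the highest value of the list at 2.82 (adjusted p = 0.425, and 2.76 with 9 libraries). Ccnb2, a cyclin B gene, was the single member with a negative value (-0.61, and -0.57 with 9 libraries).

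**Figure D4:**
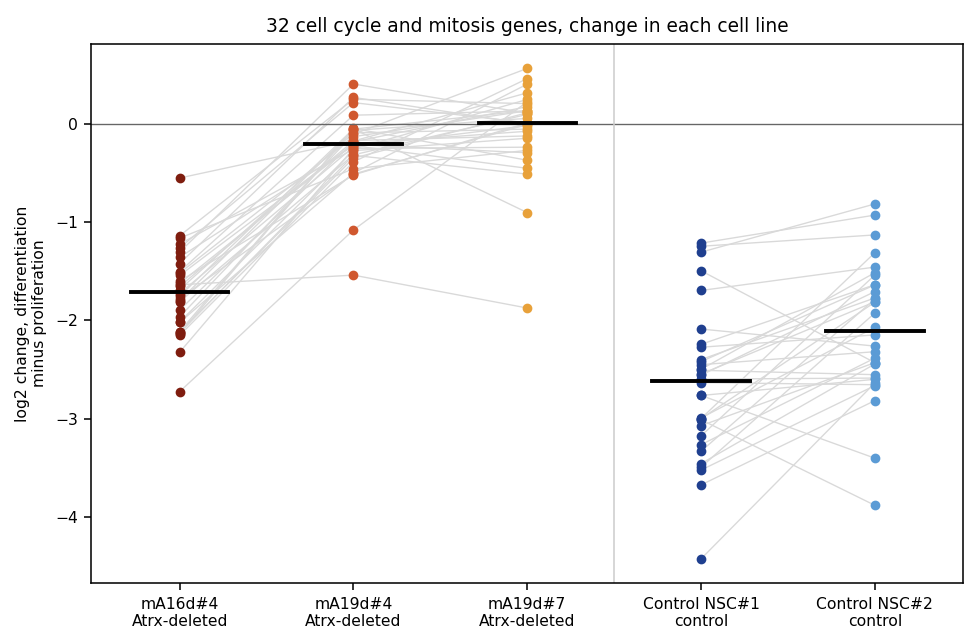
Change between media (log2, differentiation minus proliferation) of the 32 genes of the cell cycle and mitosis list in each cell line, Atrx-deleted lines left of control lines, with 1 dot per gene, grey lines joining a gene across lines of a genotype, and black bars for the median. The medians were -1.71, -0.21 and 0.01 in mA16d#4, mA19d#4 and mA19d#7, against -2.61 and -2.11 in the control lines.

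Promoters of late cell cycle genes are known for CCAAT boxes, bound by NF-Y, and for the cell cycle genes homology region, bound by the DREAM complex. The starts of the 4 list members of smallest p with an entry on a reported chromosome are printed from RefSeq (build GRCm38.p6, 250 bases before the start to 50 after), because these genes carried the list's pattern. They are Ube2c (chr2:164769679-164769978, plus strand), Top2a (chr11:99024140-99024439, minus strand), Mki67 (chr7:135716330-135716629, minus strand) and Cenpf (chr1:189688037-189688336, minus strand). Capitals mark the box CCAAT, the homology region motif TTTGAA and its variant TTTAAA on either strand. Read from the other strand the box is ATTGG and the homology region motif is TTCAAA, the variant reads the same, and matches may overlap.
Ube2c: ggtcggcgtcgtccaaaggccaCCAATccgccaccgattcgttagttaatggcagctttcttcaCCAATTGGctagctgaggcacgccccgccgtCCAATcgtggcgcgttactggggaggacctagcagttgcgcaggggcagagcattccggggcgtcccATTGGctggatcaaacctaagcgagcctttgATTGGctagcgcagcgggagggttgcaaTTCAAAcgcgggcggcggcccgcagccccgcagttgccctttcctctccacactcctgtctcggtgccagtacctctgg
Top2a: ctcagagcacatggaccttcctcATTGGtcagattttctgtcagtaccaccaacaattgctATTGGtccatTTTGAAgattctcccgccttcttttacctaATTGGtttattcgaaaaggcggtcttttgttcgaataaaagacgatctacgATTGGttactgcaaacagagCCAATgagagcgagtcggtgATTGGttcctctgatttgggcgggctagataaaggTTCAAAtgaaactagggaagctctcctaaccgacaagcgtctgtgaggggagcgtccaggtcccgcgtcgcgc
Mki67: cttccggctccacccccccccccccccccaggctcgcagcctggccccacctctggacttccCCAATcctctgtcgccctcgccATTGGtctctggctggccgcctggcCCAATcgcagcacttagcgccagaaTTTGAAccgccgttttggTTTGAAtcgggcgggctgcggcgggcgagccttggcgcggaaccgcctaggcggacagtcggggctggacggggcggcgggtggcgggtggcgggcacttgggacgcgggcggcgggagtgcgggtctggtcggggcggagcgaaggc
Cenpf: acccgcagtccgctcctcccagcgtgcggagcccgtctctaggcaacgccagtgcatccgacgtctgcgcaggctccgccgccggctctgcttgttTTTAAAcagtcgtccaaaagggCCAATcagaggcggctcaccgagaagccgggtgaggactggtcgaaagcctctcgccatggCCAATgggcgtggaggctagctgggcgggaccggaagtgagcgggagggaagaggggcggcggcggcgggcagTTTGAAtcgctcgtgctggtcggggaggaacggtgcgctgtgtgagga
Ube2c and Top2a hold 6 CCAAT matches each, Mki67 holds 3 and Cenpf 2, and each of the 4 holds at least 1 TTTGAA. Of the 26 list members with an entry, 88.5% held CCAAT, 76.9% held TTTGAA and 26.9% held the variant, and 80.8% held the box together with either form. Over all 27025 promoters of that length these shares were 37.9%, 18.1%, 13.2% and 10.9%, and over the 12277 tested genes with an entry 38.8%, 12%, 9.28% and 8.08%. Members with no entry were Aurkb, Ccna2, Cdc25c, Foxm1, Kif20a and Tpx2.

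Among all tested genes, 992 promoters held both the CCAAT box and either form of the homology region motif. Those genes had a median interaction of 0.09 (0.12 with 9 libraries), with 7.66% positive and 3.02% negative at unadjusted p below 0.05, against a median of 0.01 (0.03), 2.88% and 3.68% for the 6112 genes with neither motif. The 3771 genes with the box alone had a median of 0.03 (0.05) and the 1402 with the homology region motif alone a median of 0.02 (0.05). With members of the mitosis and replication lists left out, 966 genes with both remained, with a median of 0.07 (0.11) and 6.11% positive. In the control lines 7.06% of the genes with both fell past the test, and 5.49% with those lists left out, against 1.73% with neither. The control change enters the interaction, so the shares of positive values are not separate from these. A match to these letters is a description and does not show binding.

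DNA replication and S phase genes (30 tested) had a median interaction of 0.41 (0.52 with 9 libraries) and 26 positive values, beside 52.2% of all genes. At unadjusted limma p below 0.05, 2 were positive, and 5 without the mA19d#7 differentiation library, beside 3.7% and 6.34% of all genes. In this list 4 fell in the control lines and 0 in the Atrx-deleted lines, beside 2.56% and 0.0702% of all genes. With so few calls in the Atrx-deleted lines, nothing is read from the 0. The highest value was 1.81 (1.96 with 9 libraries) for Tk1, the thymidine kinase of the salvage pathway.

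Interferon response genes (21 tested) had a median interaction of 0.84, and 0.59 without the mA19d#7 differentiation library. With all libraries 16 were positive, beside 52.2% of all genes. For 11 of 21 (52.4%) the change in every Atrx-deleted line lay above that in every control line, beside 13.9% of all genes. At unadjusted limma p below 0.05, 4 were positive, beside 3.7% of all genes. Rsad2, the antiviral enzyme viperin, was at 4.87, 5.85 and 4.71 TPM after differentiation in mA16d#4, mA19d#4 and mA19d#7, against 4.34 and 3.59 TPM in the control lines. In proliferation medium Rsad2 was at 4.38, 8.09 and 7.88 TPM in the Atrx-deleted lines, against 28.1 and 21.5 TPM in the control lines. The genotypes thus lay close after differentiation and apart in proliferation medium, and the interaction was 2.06 (SE 0.454, limma adjusted p = 0.331, and 2.11 with 9 libraries). Rsad2 and Ddx58, the RNA sensor RIG-I, were the 2 members that fell in the control lines, where 2.56% of all genes fell. They fell there by 2.37 and 1.62, and their changes in the Atrx-deleted lines were -0.31 and -0.28.

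Astrocyte genes (24 tested) had a median interaction of -0.60 (-0.66 without the mA19d#7 differentiation library), with 4 positive, beside 52.2% of all genes. At unadjusted limma p below 0.05, 4 were negative (8 without that library), beside 3.32% and 5.38% of all genes. In the control lines 7 rose, namely Apoe, Slc1a2, Slc1a3, Slc4a4, Fgfr3, Acsl6 and Hepacam, and in the Atrx-deleted lines 0 rose (3 without that library). Over all genes 1.95% rose in the control lines and 0.0128% in the Atrx-deleted lines. With so few calls in the Atrx-deleted lines, nothing is read from the 0. Apoe, an apolipoprotein that astrocytes secrete to carry lipids, was at 1451, 977 and 955 TPM after differentiation in mA16d#4, mA19d#4 and mA19d#7, against 5423 and 6640 TPM in the control lines. In proliferation medium Apoe was at 440, 1029 and 1733 TPM in the Atrx-deleted lines, against 359 and 753 TPM in the control lines. The control lines rose by 3.53, and the Atrx-deleted lines moved in different directions, with changes per line of 1.72, -0.07 and -0.86. The interaction of Apoe was -3.26 (SE 0.730, limma adjusted p = 0.331, and -3.16 with 9 libraries).

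Slc4a4, a sodium bicarbonate cotransporter of astrocytes, was at 170, 115 and 86.9 TPM after differentiation in the Atrx-deleted lines, against 674 and 598 TPM in the control lines, and its interaction was -1.73 (SE 0.396, limma adjusted p = 0.333, and -1.50 with 9 libraries). Fgfr3, a receptor for fibroblast growth factors, was at 157, 89.5 and 97.9 TPM after differentiation in the Atrx-deleted lines, against 197 and 189 TPM in the control lines. In proliferation medium Fgfr3 was at 177, 151 and 129 TPM in the Atrx-deleted lines, against 69.6 and 104 TPM in the control lines. Slc1a2, the glutamate transporter, rose by 2.91 in the control lines, and its change in the Atrx-deleted lines was 2.00, so the astrocyte genes did not share one size of shortfall. The summed level of 6 astrocyte markers ranged from 1484 to 3415 TPM in differentiated Atrx-deleted lines, against 1870 to 1912 TPM in differentiated control lines, and overlapped. Gfap had an interaction of 2.78 (SE 2.54, adjusted p = 0.874) and 0.71 without the mA19d#7 differentiation library.

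Lipid transport genes (15 tested, Apoe again among them) had a median interaction of -0.43 (-0.34 without that library). At unadjusted limma p below 0.05, 3 were negative, beside 3.32% of all genes. Pltp, the phospholipid transfer protein, was at 9.01, 12.9 and 15.3 TPM after differentiation in the Atrx-deleted lines, against 57.1 and 54.5 TPM in the control lines. Atrx-deleted lines in proliferation medium had 7.59, 14.7 and 16.3 TPM, against 11.3 and 15.6 TPM in the control lines. All 3 Atrx-deleted lines thus stayed near their proliferation level, and the interaction was -2.01 (SE 0.479, limma adjusted p = 0.363, and -2.16 with 9 libraries).

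The pan-neuronal, synapse and voltage-gated channel lists had negative medians smaller in size than that of the astrocyte list. The pan-neuronal list (22 tested) had a median interaction of -0.21 (-0.19 with 9 libraries), the synapse list (23 tested) one of -0.42 (-0.34) and the voltage-gated channel list (17 tested) one of -0.46 (-0.49). At unadjusted p below 0.05 they held 1, 1 and 2 negative values, and 2 each with 9 libraries, beside 3.32% and 5.38% of all genes. The GABAergic interneuron list (11 tested) had a median of 0.003 (-0.10 with 9 libraries), with 6 positive. At unadjusted limma p below 0.05 it held 1 positive and 0 negative values with all libraries, beside 3.7% and 3.32% of all genes. The proneural and glutamatergic list (9 tested) had a median of -0.19 (-0.12) and 0 members at that limit. Elavl3, a neuronal RNA-binding protein, was at 3.10, 9.34 and 1.35 TPM after differentiation in mA16d#4, mA19d#4 and mA19d#7, against 13.4 and 20.1 TPM in the control lines. In proliferation medium Elavl3 was at 2.54, 2.80 and 3.83 TPM in the Atrx-deleted lines, against 0.932 and 2.43 TPM in the control lines. Its interaction was -2.55 (SE 0.799, limma adjusted p = 0.512) and -2.06 without the mA19d#7 differentiation library. Nrxn2, a presynaptic adhesion receptor, was at 92.6, 116 and 142 TPM after differentiation in the Atrx-deleted lines, against 159 and 172 TPM in the control lines, with an interaction of -0.74 (adjusted p = 0.625, and -0.89 with 9 libraries). In both genes every differentiated control library was above every differentiated Atrx-deleted library.

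The common neuronal markers differed among themselves. Tubb3, the neuronal beta-tubulin, had an interaction of -1.17 (SE 0.934, limma adjusted p = 0.848) with all libraries and -0.31 without the mA19d#7 differentiation library, where it was at 50.1 TPM against 247 and 363 TPM in mA16d#4 and mA19d#4. Dcx, the microtubule protein of young neurons, had -0.93 (adjusted p = 0.896, and -0.62 with 9 libraries) and Map2, a dendritic microtubule protein, 0.15 (adjusted p = 0.972, and 0.55 with 9 libraries). The stem cell genes Nes and Sox2 had 0.45 (adjusted p = 0.822, and 0.33 with 9 libraries) and 0.02 (adjusted p = 0.998, and -0.14 with 9 libraries), Olig2 had 0.16 (adjusted p = 0.973, and 0.58 with 9 libraries), and the kinase inhibitor gene Cdkn1a had -0.92 (adjusted p = 0.782, and -0.59 with 9 libraries). Cdkn1a was at 99.6, 46.0 and 33.6 TPM after differentiation in the Atrx-deleted lines, against 16.3 and 17.1 TPM in the control lines, and the genotypes were likewise apart in proliferation medium (68.1, 67.2 and 59.0 TPM in the Atrx-deleted lines, against 11.1 and 9.36 TPM in the control lines).

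The oligodendrocyte list (18 tested) had a median of -0.64, and -0.30 without the mA19d#7 differentiation library, with 0 members at unadjusted p below 0.05 with all libraries (limma). The Notch list (17 tested) had -0.46 (-0.31), with Hey1, a Notch target gene, at -1.03 (adjusted p = 0.533, and -0.94 with 9 libraries). Feedback genes of ERK signalling, which EGF and FGF induce, had 0.19 (0.45 without that library). Spry4, a receptor tyrosine kinase inhibitor among them, was at 24.1, 23.4 and 18.0 TPM after differentiation in the Atrx-deleted lines, against 11.4 and 12.6 TPM in the control lines, with an interaction of 1.02 (adjusted p = 0.495, and 1.15 with 9 libraries). The lists of targets of BMP and TGF-beta and of extracellular matrix genes had medians of -0.08 and -0.01 with all libraries and -0.51 and -0.44 without the mA19d#7 differentiation library. Ctgf, a matricellular TGF-beta and YAP target, was at 2.07, 2.76 and 6.27 TPM after differentiation in the Atrx-deleted lines, against 28.4 and 29.0 TPM in the control lines, with an interaction of -3.15 (adjusted p = 0.331) and -3.51 (adjusted p = 0.136) without it. These 2 lists were the ones whose median moved most with that library, by about 0.43 each.

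**Figure D5:**
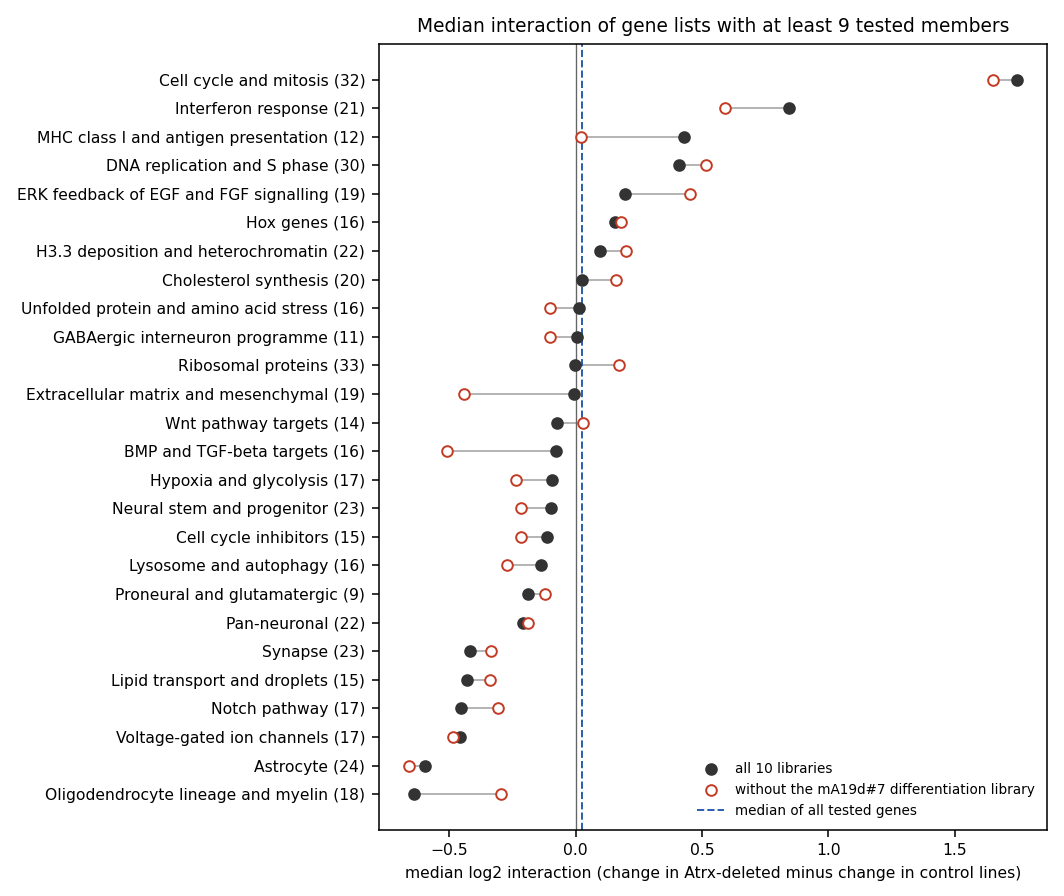
Median log2 interaction of the 26 gene lists with at least 9 tested members (number tested in brackets), with all 10 libraries (filled) and without the mA19d#7 differentiation library (open), and the median over all tested genes as a dashed line. The mitosis list stood at 1.75 and 1.65, and the astrocyte list at -0.60 and -0.66.

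Some genes behaved in the mA19d#7 differentiation library as in the control lines and not as in the other Atrx-deleted lines, and these were picked after their values were seen. Capn1, a calpain protease, was at 7.06, 5.08 and 56.7 TPM after differentiation in mA16d#4, mA19d#4 and mA19d#7, against 20.8 and 16.9 TPM in the control lines. In proliferation medium Capn1 was at 19.2, 16.4 and 12.1 TPM in the Atrx-deleted lines, against 4.51 and 4.05 TPM in the control lines. Nfasc, an axonal adhesion molecule, was at 95.7, 54.8 and 347 TPM after differentiation in the Atrx-deleted lines, against 113 and 98.5 TPM in the control lines. In proliferation medium Nfasc was at 60.8, 47.8 and 39.8 TPM in the Atrx-deleted lines, against 5.26 and 10.3 TPM in the control lines. Itgb5, an integrin subunit, was at 44.4, 24.5 and 180 TPM after differentiation in the Atrx-deleted lines, against 130 and 120 TPM in the control lines. In all 3 genes the mA19d#7 library was the highest of the differentiated libraries and the other 2 Atrx-deleted lines were the lowest. Their interactions were -2.14, -2.35 and -2.12 with all libraries (limma adjusted p = 0.746, 0.608 and 0.670), and -3.16, -3.09 and -2.93 without it (adjusted p = 0.0779, 0.0867 and 0.0851).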

How the data were processed

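Gene expression was measured by RNA sequencing of total RNA libraries. The table deposited by the authors holds log2 values of 21101 genes in 10 libraries, and per the submitters' processing notes reads were aligned with STAR to mm10. The sources used here name no version, annotation or quantification tool. All 10 libraries hold the same sorted values, with 1213 genes at the lowest value of -8 in each and a sum of 997524 after back-transformation, so the values were read as quantile-normalised log2 TPM. A change of total RNA, and the depth, cannot be seen in such values.

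Levels were back-transformed (linear TPM had been assumed), and limma 3.58.1 (R 4.3.3) was run on log2(TPM + 1) with a mean-variance trend, 4 group means and 6 residual degrees of freedom. The test took the 15660 genes that reached 1 TPM in 2 or more libraries, with Benjamini-Hochberg adjustment over all of them and a threshold of 0.05. All groups shared a gene's estimate of spread. The interaction was the change in Atrx-deleted lines minus the change in control lines. The fit without the mA19d#7 differentiation library had 5 residual degrees of freedom.

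The same cell line appears in both media, so the line was also fitted as a block. The deviations of a line from its group means correlated between media with r = 0.159 for mA16d#4, 0.404 for mA19d#4, -0.194 for mA19d#7 and 0.0624 for each control line.

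Genes were named by rule: adjusted p below 0.05, a log2 interaction of at least 1 in size, 5 TPM in the highest group mean and no overlap between the changes per line, up to 15 in each direction. Where fewer than 5 passed, the 10 of smallest p in that direction were given as values, with symbols of clone type passed over. A gene that the rule names is not reported here. Atrx, Mki67, Nes, Sox2, Tubb3, Dcx, Map2, Gfap, Apoe, Olig2 and Cdkn1a were always given. The members, rules and 31 gene lists were chosen with earlier results of these data known, and lists are described by counts and medians without a test. Positions are from GENCODE M21 and start regions from RefSeq. The fit was tested on simulated data. Alternatives were pseudocounts, filters, limma without trend or robust, group weights, blocks, median-of-ratios scaling and omitted libraries, and fitting the deposited log2 values directly was added after seeing the data.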

Additional observations from a re-analysis of the deposited data

Results flagged for a closer look

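For Tmem132b the difference between genotypes was tested and passed with all 10 libraries, with an interaction of -5.65. Both control lines went up to 87.6 and 105 TPM while all Atrx-deleted libraries stayed below 0.5 TPM. Tmem132b did not pass with the cell line as a block (limma adjusted p = 0.128) or with both mA19d#7 libraries left out (0.0711). With a filter of 5 TPM it did not pass either (0.0681). Fam212b (2.51) and Tle6 (1.64) passed the same test without the mA19d#7 differentiation library, and not with it. With both mA19d#7 libraries left out neither Fam212b nor Tle6 passed. With the cell line as a block on the 8 libraries that remained, Tle6 did not pass, while Fam212b and Tmem132b did.

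In 4 of the genes given by smallest p, every Atrx-deleted line moved one way and both control lines the opposite way. These were Chadl (-2.27), Pde9a (-1.59), Rpl12 (-1.82) and Fv1 (1.47), and as the adjusted p-values of these interactions were above 0.05 and the genes were picked by their p, the opposite directions themselves were not tested. Chadl, Pde9a and Rpl12 went down in all 3 Atrx-deleted lines and up in both control lines, and Fv1 did the reverse.
With 9 libraries, the mA19d#7 differentiation library left out, the interactions were -2.29 for Chadl, -1.53 for Pde9a, -1.89 for Rpl12 and 1.51 for Fv1, and none of the 4 passed (limma).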

How the results depend on the processing

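The interaction of Tmem132b stayed negative under every alternative run, between -8.34 and -4.03, with limma adjusted p from 0.000262 to 0.345. The count of genes past the interaction threshold, 1 in the reported fit, was 0 with a pseudocount of 0.1, 2 with a pseudocount of 5, 30 with no filter on low values (23 of them under 5 TPM), 0 with a filter of 5 TPM, 2 without the trend and 6 with a weight per group. It was 0 with the cell line as a fixed replicate block, 9 with that block and both mA19d#7 libraries left out, 0 with both left out and no block, and 0 on the deposited log2 values, an alternative added after seeing the data. Of these called genes, those that went up 2-fold in control lines and under 2-fold in Atrx-deleted lines numbered 0, 2, 14, 0, 2, 3, 0, 6, 0 and 0 in that order. The random block, robust estimation and median-of-ratios scaling each gave 1. Leaving out each library in turn gave 0 to 3, with 3 without the mA19d#7 differentiation library, 1 without the Control NSC#2 proliferation library and 0 without any other, and 0 to 1 of that kind. At counts of 0, 528 to 1719 genes had an unadjusted limma p below 0.05.

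The count for the response in Atrx-deleted lines, 13, was 7 with a pseudocount of 5, 2 with no filter, 0 without the trend, 1 with group weights, 6 with the fixed block, 326 with the block and no mA19d#7 libraries and 45 without them, and 0 to 348 over omitted libraries, the highest without the mA19d#7 differentiation library. The control count, 706, was 2984, 1846 and 1328 with group weights, with the block and no mA19d#7 libraries and without them, and 6 to 1450 over omitted libraries, the lowest without the Control NSC#1 proliferation library. The cause of these moves was not tested. The median of the mitosis list stayed between 1.45 and 2.18 under all alternatives. With 1 library per line and medium, and depth unknown, changes below about the spread of lines could not be seen, and genes near 0 TPM depend on the pseudocount.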
